A study of Caenorhabditis elegans with 4 samples.

Results

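Hedgehog-related and patched-related genes were represented on the array by 94 probe sets for 79 genes, and 53 of these probe sets, for 46 genes, gave a signal of 50 or more in one or more of the 4 samples. A probe set, which is the group of short oligonucleotides that reports 1 transcript, was taken as a member if every gene symbol in the platform annotation began with *wrt*, *grd*, *grl*, *ptr* or *ptc* and its signal reached 50 on any array. The whole table holds 22625 probe sets. Of the members, 25 belong to hedgehog-related genes (6 *wrt*, 4 *grd* and 15 *grl*) and 28 to patched-related genes (24 *ptr* and 4 *ptc*).

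*C. elegans* has no true Hedgehog ligand and no Smoothened, the receptor that passes on the Hedgehog signal in flies and vertebrates. It instead carries large families of secreted hedgehog-related proteins: warthog (*wrt*), groundhog (*grd*) and ground-like (*grl*). Warthog and groundhog proteins can carry the self-cleaving Hint domain of Hedgehog, whereas ground-like proteins lack it. The counterparts of the Hedgehog receptor Patched are the *ptc* genes and the larger *ptr* family, multipass membrane proteins with a sterol-sensing domain. Many genes of both kinds are known for expression in the epidermis and for roles in molting, cuticle formation and membrane traffic.

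RNA was taken from whole 1-day-old adults grown at 20 °C and then kept for 1 h in 1 mM copper sulfate or in water. The mutant strain carried the *kgb-1(km21)* mutation in the N2 Bristol background, a loss-of-function allele of a JNK-type MAP kinase of the heavy metal response, and wild-type N2 Bristol served as control. Each of the 4 conditions (copper-treated *kgb-1* mutants, untreated *kgb-1* mutants, copper-treated wild-type animals and untreated wild-type animals) was hybridized to 1 array. No biological replicate exists, strain cannot be told apart from culture, and in RNA of whole animals fewer cells of a type and less RNA per cell cannot be told apart. The values are MAS5 signals on a linear scale as deposited. A signal below 100 was treated as too dim to measure, and a fold change with a dimmer side under 100 took 100 for that side, which is marked by "at least".

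The log2 ratios of 18 hybridization controls, added in equal amount to every sample, had an SD of 0.176 to 0.215 in the comparisons between arrays. The adult label was borne out by 8 probe sets for vitellogenins, the yolk proteins of adult hermaphrodites, whose lowest signal on any array was 640.0. The single probe set for *kgb-1* gave 229 and 179.5 in copper-treated and untreated *kgb-1* mutants and 314 and 128.5 in copper-treated and untreated wild-type animals. Whether its probes lie inside the part deleted in *km21* is not stated in the sources used here, so it does not check the genotype.

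The share of probe sets with signal depended on the minimum. All 4 *ptc* probe sets and 24 of 32 *ptr* probe sets (75%) reached 50, against 6 of 11 for *wrt* (54.5%), 15 of 34 for *grl* (44.1%), 4 of 13 for *grd* (30.8%) and 63.9% of all worm probe sets. At a minimum of 100 the shares were 45.5% for *wrt*, 40.6% for *ptr*, 30.8% for *grd* and 26.5% for *grl*, against 50% of all worm probe sets, so *ptr* stood above *wrt* and the whole array at 50 but below both at 100. In all, 35 members reached 100 on some array, and 21 reached it on all of them. The remaining 18 members, with signals of 6.46 to 80.5, stayed below 100 in every sample and were left out of the tests reported here.

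**Figure D1:**
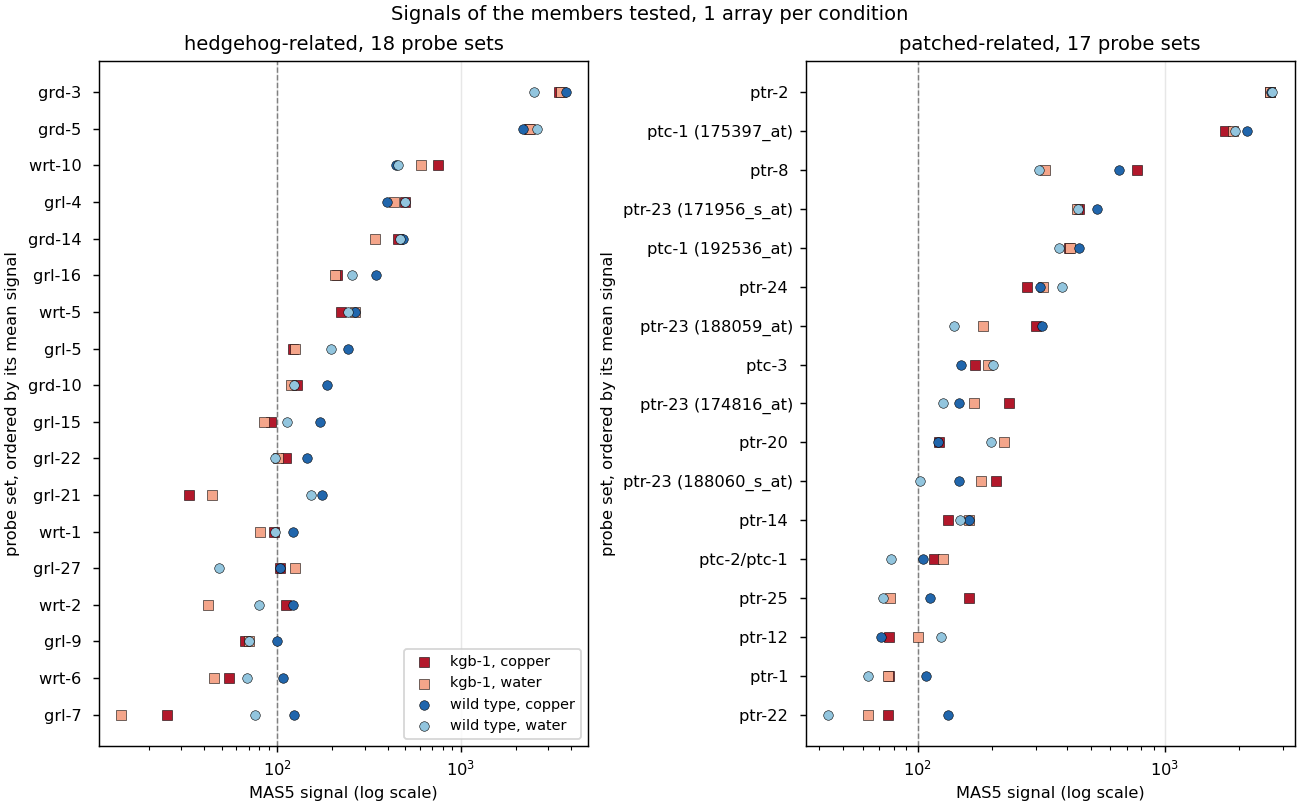
MAS5 signal (log axis) of the 18 hedgehog-related and 17 patched-related probe sets tested, 1 point per array, with squares for *kgb-1* mutants, circles for wild-type animals, dark for copper and light for water, and a dashed line at a signal of 100. The 2 copper points of *ptr-8* lie at 767 and 650.2, to the right of the 2 water points, and both *kgb-1* points of *grl-21* lie at 33.2 and 44.2, left of both wild-type points.

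To ask whether copper changed these genes, the copper-treated samples of both genotypes were compared with the untreated ones. *ptr-8*, a patched-related gene on chromosome II, was the member that rose. Its signal was 767 in copper-treated and 328 in untreated *kgb-1* mutants, and 650.2 in copper-treated and 310.1 in untreated wild-type animals. Both copper values were thus above both water values, by 2.34-fold in the mutants and 2.10-fold in wild-type animals, and all 4 signals were well over 100. The shared log2 change was 1.15 ± 0.12 (SE, adjusted p = 0.0113 from limma, fitted to copper and genotype over 11266 probe sets and corrected by Benjamini-Hochberg, higher in both genotypes). Its probe set, 187935_s_at, carries the suffix for sequence shared among transcripts.

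Of the 35 members tested, limma called 1 higher with copper, where 1.18% of all probe sets tested were called higher. It called 0 lower, where 0.346% of all were. At an unadjusted p under 0.05, 4 members were higher and 1 was lower (11.4% and 2.86%, against 6.98% and 5.8% of all probe sets). Of the 4, *wrt-2* and *ptr-25* reached 100 only in copper-treated samples and had to be higher there, so the count supports nothing. The call for *ptr-8* held in 8 of 8 other settings on all arrays in which it was tested (adjusted p = 0.00279 to 0.0352 from limma). It was lost in fits without the untreated *kgb-1* array (adjusted p = 0.0713) or without the untreated wild-type array (adjusted p = 0.0734), in which limma had 3 arrays and no genotype factor.

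Markers of other stages and cells were read beside these copper values. The 33 probe sets for genes of larval molting and cuticle synthesis summed to 38789 in copper-treated and 30615 in untreated mutants, and to 38608 in copper-treated and 31166 in untreated wild-type animals. Of the 19 tested, 1 was called higher with copper, 172820_x_at of the cuticle collagen gene *sqt-3* (log2 change 0.42, adjusted p = 0.0214 from limma), which makes up most of the sum, and the list's median was -0.01. The other tested probe set of *sqt-3*, 174910_at, was at -0.07. *bli-2*, a cuticle collagen gene, had the highest log2 change of the list, 2.43, with signals of 68.6 and 12.45 in copper-treated and untreated mutants and 151 and 28.5 in copper-treated and untreated wild-type animals (adjusted p = 0.149 from limma). The 8 vitellogenin probe sets summed to 189347 and 169936 in copper-treated and untreated mutants and to 198567 and 180994 in copper-treated and untreated wild-type animals, with 0 called. Among markers of early embryos, sperm and amphid glia, with 6, 6 and 3 probe sets tested, 0 were called for copper. The part of these cells and stages in the *ptr-8* value was not tested.

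*ptr-23*, on chromosome I, encodes a patched-related protein known for its part in the osmotic stress response, where it acts with the mucin-like protein OSM-8. It was the member gene with the most probe sets, and these did not move alike. Probe set 188059_at gave 302 in copper-treated and 184 in untreated *kgb-1* mutants, and 319 in copper-treated and 140.5 in untreated wild-type animals. Here too both copper values exceeded both water values, by 1.64-fold in the mutants and 2.27-fold in wild-type animals, but the shared log2 change of 0.95 ± 0.18 did not pass (SE, adjusted p = 0.0812 from limma). On 171956_s_at the signals were 451 and 439 in copper-treated and untreated mutants and 533 and 444 in copper-treated and untreated wild-type animals, a log2 change of 0.15 ± 0.13 (SE, adjusted p = 0.683 from limma). The other two probe sets, 174816_at and 188060_s_at, had log2 changes of 0.34 and 0.36 (adjusted p = 0.529 for each from limma). The 4 probe sets therefore ranged from 0.15 to 0.95 for the same gene, and a 2-fold copper ratio was seen on 188059_at in wild-type animals and on none of the others.

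**Figure D2:**
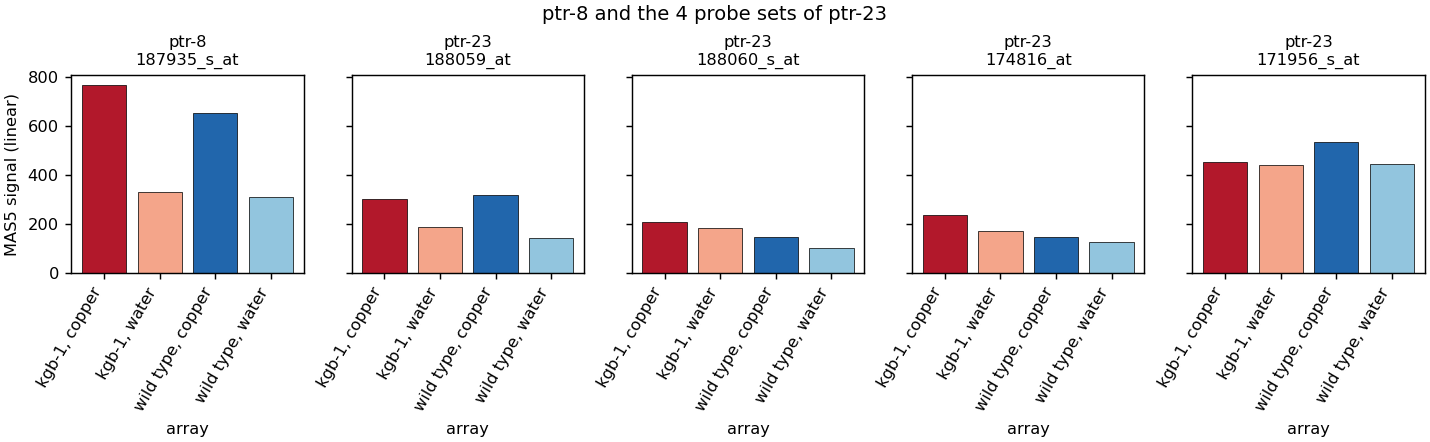
Bars show the MAS5 signal (linear axis from 0) of *ptr-8* and of the 4 probe sets of *ptr-23* on each of the 4 arrays, 1 array per bar and so without error bars. The copper bars of *ptr-8* (767 and 650.2) stand above its water bars (328 and 310.1), while 171956_s_at of *ptr-23* reads 451, 439, 533 and 444 across the arrays.

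*ptr-20* was the tested member with the lowest log2 change. Its signal was 122 in copper-treated and 222 in untreated *kgb-1* mutants, and 121 in copper-treated and 199 in untreated wild-type animals. The copper values were below the water values in both genotypes, 1.82-fold lower in the mutants and 1.65-fold lower in wild-type animals, with a log2 change of -0.79 ± 0.19 that did not pass (SE, adjusted p = 0.154 from limma). *ptr-12* gave 76.3 and 99.9 in copper-treated and untreated mutants and 71.3 and 124 in copper-treated and untreated wild-type animals. It reached 100 on 1 array, that of untreated wild-type animals, and did not pass either (adjusted p = 0.482 from limma).

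In wild-type animals alone, 4 of 35 members measured were more than 2-fold higher with copper, namely *ptr-8*, *ptr-23* on 188059_at, *ptr-22* and *grl-27*, against 2.11% of all probe sets measured. None was more than 2-fold lower, against 1.08%. In *kgb-1* mutants alone, 3 of 26 were more than 2-fold higher, namely *ptr-8*, *ptr-25* and *wrt-2*, against 1.51%, and none was more than 2-fold lower, against 0.753%. Most of these ratios rested on a signal below 100. *ptr-22* passed the minimum only in copper-treated wild-type animals, and *ptr-25* and *wrt-2* only in the copper-treated samples, so they had to be higher there. In wild-type animals *grl-27* also reached 100 only with copper. With a minimum of 200, the count was 1 in the mutants (*ptr-8*) and 2 in wild-type animals (*ptr-8* and *ptr-23*). *ptr-22* had 75.8 and 63.1 in copper-treated and untreated mutants but 133 and 43.4 in copper-treated and untreated wild-type animals, a fold change there of at least 1.33. *grl-27*, a ground-like gene on chromosome V, gave 104 and 126 in the copper-treated and untreated mutants and 104 and 48.4 in copper-treated and untreated wild-type animals, so that the untreated wild-type sample stood below the other 3. With that signal raised to 100 its copper ratio in wild-type animals was at least 1.04.

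*wrt-2*, a warthog gene on chromosome X, had signals of 112 and 42.2 in copper-treated and untreated *kgb-1* mutants and 123 and 80.0 in copper-treated and untreated wild-type animals. Both copper values lay above both water values, and the fold change was at least 1.12 in the mutants and at least 1.23 in wild-type animals (log2 change 1.01 ± 0.35, SE, adjusted p = 0.314 from limma). *ptr-25* showed the same order, with 161 and 77.2 in copper-treated and untreated mutants and 112 and 72.2 in copper-treated and untreated wild-type animals (log2 change 0.85 ± 0.28, SE, adjusted p = 0.292 from limma). Neither passed the test. Both genes reached 100 only in the copper-treated samples, so they had to be higher there and this order supports nothing.

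**Figure D3:**
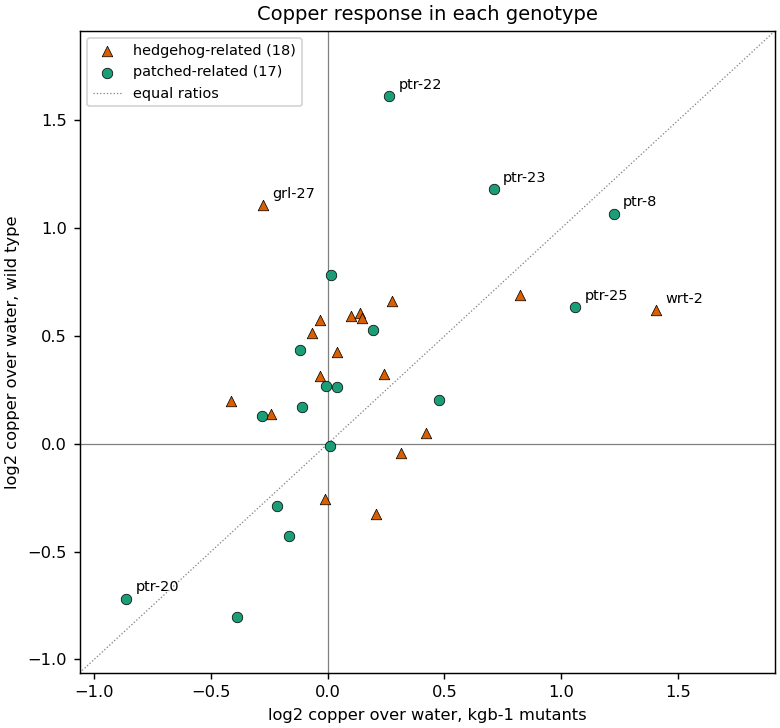
Log2 ratio of copper over water in *kgb-1* mutants (x axis) against that in wild-type animals (y axis) for the 35 members tested, from 4 separate arrays, with triangles for hedgehog-related and circles for patched-related probe sets and a dotted line of equal ratios; the *ptr-23* point named is 188059_at. *ptr-8* lies close to the line at a fold change of 2.34 in the mutants and 2.10 in wild-type animals, *ptr-20* lies in the lower left corner, and more points lie above 0 on the wild-type axis than on the mutant axis.

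The copper ratios of the members were counted by sign in each genotype. In wild-type animals 27 of 35 members measured had a ratio above 1, with a median log2 ratio of 0.32, against 51.7% and 0.01 for all probe sets measured. In *kgb-1* mutants 14 of 26 did, with a median of 0.02, against 48.8% and -0.01. These counts are a description, since 34 of the 35 members reached 100 in copper-treated wild-type animals and 6 of them (*grl-7*, *grl-9*, *ptr-1*, *ptr-22*, *wrt-1* and *wrt-6*) on no other array, and such members had to be higher there. Only 1.72% of all probe sets tested reached 100 on that array alone, against 17.1% of the members. The members were dimmer, with 9 of 35 at a mean signal below 100, against 700 of 11266 probe sets tested. The 2 shares are thus not matched for signal. Among the 21 members with all signals at 100 or more, 14 had a positive ratio in wild-type animals and 11 in mutants, with medians of 0.17 and 0.01. Of all probe sets at 100 or more on every array, 50.4% and 48.2% did. Among the 11 members with a mean signal of 300 or more, 6 had a positive ratio in each genotype, with medians of 0.05 in wild-type animals and 0.01 in mutants. The corresponding shares of all probe sets tested were 48.9% and 47%. The excess in wild-type animals thus lay in the dimmer members (8 of 9 with a mean below 100 and 13 of 15 between 100 and 300). All probe sets tested also leaned upward there, with 58.9% and 56.5% above 0. The difference between the genotypes in the copper response could not be tested with 1 array per condition. Over the 35 members the 2 sets of copper ratios had a Pearson r of 0.51, as had all 11266 probe sets tested (0.51). The median distance between a member's ratios in the mutants and in wild-type animals was 0.39 on the log2 scale, against 0.20 for all probe sets tested. These sets are not matched for signal, and the distance was larger for dim probe sets. With all signals at 100 or more it was 0.33 for members and 0.18 for all, and between 50 and 100 it was 0.52 and 0.61.

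The genotype comparison asked whether these genes were set at another level in the samples labelled *kgb-1(km21)*. Several *grl* genes had lower signals in the mutants with and without copper, but none passed the test. *grl-21*, on chromosome IV, gave 33.2 in copper-treated and 44.2 in untreated *kgb-1* mutants, against 177 in copper-treated and 154 in untreated wild-type animals. The groups did not overlap, and the mutants were at least 1.77-fold lower with copper and at least 1.54-fold lower without. Its log2 difference was -2.11 ± 0.35 on the deposited signals (SE, adjusted p = 0.0987 from limma) and -0.72 with signals below 100 raised to 100 (adjusted p = 0.204). It passed when the signal minimum was 50 (adjusted p = 0.0466 from limma) and when every array was scaled to the same median (adjusted p = 0.0221), so its call turned on these choices.

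*grl-7*, on chromosome V, had lower signals in the mutants on both of its probe sets, and neither gave a call. On 173567_s_at the signals were 25.2 and 14.2 in copper-treated and untreated mutants and 123 and 76.3 in copper-treated and untreated wild-type animals, a difference of at least 1.23-fold with copper (adjusted p = 0.238 from limma). On 173004_s_at they were 30.6 and 44.5 in the mutants and 52.5 and 67.7 in wild-type animals, all below 100, with both mutant values below both wild-type values. *grl-5* gave 122 and 125 in copper-treated and untreated mutants and 245 and 197 in copper-treated and untreated wild-type animals, 2.01-fold lower with copper and 1.58-fold lower without. With all its signals above 100, its log2 difference was -0.83 ± 0.20 and did not pass (SE, adjusted p = 0.217 from limma). *grl-16* followed with 213 and 207 in the mutants and 345.5 and 257.5 in wild-type animals, and *grl-15* with 93.3 and 84.7 against 172 and 113.

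Of the 35 members tested, limma called 0 higher and 0 lower in the mutants, where 0.0533% and 0.284% of all probe sets tested were called. At an unadjusted p under 0.05, 3 were higher and 5 were lower (8.57% and 14.3%, against 5.52% and 5.25% of all). The 5 that were lower are the *grl* genes above, but *grl-21*, *grl-7* and *grl-15* reached 100 in wild-type animals only, so they had to be lower in the mutants and their count supports nothing. With signals below 100 raised to 100, the log2 difference of *grl-7* was -0.15 (adjusted p = 0.768 from limma). By ratio, 1 of 27 members measured without copper was more than 2-fold higher in the mutants (*grl-27*, against 0.601% of all) and 1 more than 2-fold lower (*grl-21*, against 0.934%). In that comparison *grl-27* reached 100 only in the mutants (126 against 48.4, at least 1.26-fold) and *grl-21* only in wild-type animals. The minimum thus fixed the sign of each, and these counts support nothing. With copper, 0 of 34 were more than 2-fold higher (against 1.19%) and 3 more than 2-fold lower, namely *grl-21*, *grl-7* and *grl-5* (against 1.44%). Of these, *grl-21* passed the signal minimum only through wild-type arrays and *grl-7* only through that of copper-treated wild-type animals, while *grl-5* was above it on every array.

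**Figure D4:**
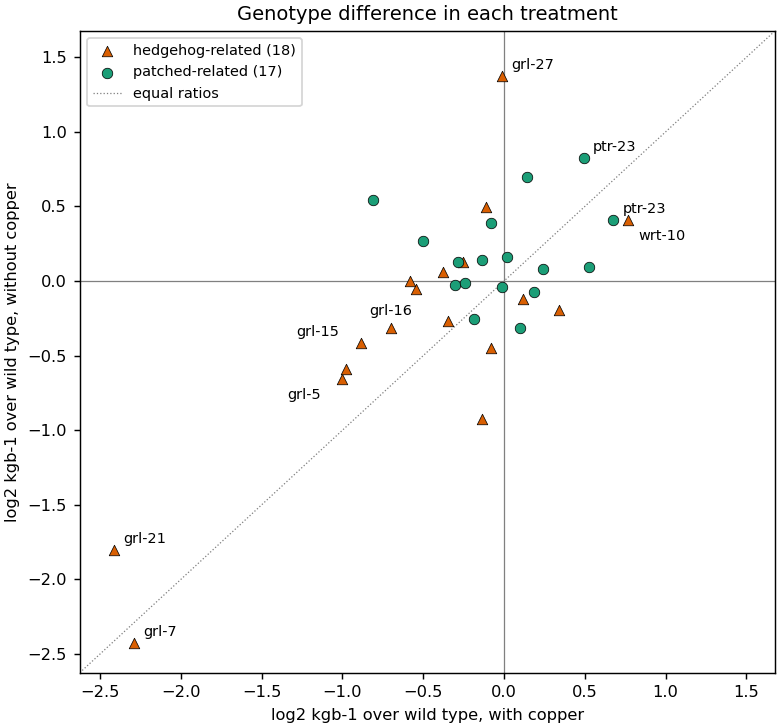
Log2 ratio of *kgb-1* mutants over wild-type animals with copper (x axis) against that without copper (y axis) for the 35 members tested, from 4 separate arrays, with triangles for hedgehog-related and circles for patched-related probe sets and a dotted line of equal ratios; the *ptr-23* points named are 188060_s_at, the upper one, and 174816_at. *grl-21* and *grl-7* lie in the lower left corner, with *grl-5* nearer the centre, while the patched-related points lie on both sides of 0 on each axis.

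By class, the genotype ratios were as follows, with no test between the classes. With copper, 15 of 18 hedgehog-related members measured were lower in the mutants (median log2 ratio -0.36), and 9 of 16 patched-related ones were (median -0.05). Of all probe sets measured, 49.6% were higher in the mutants, with a median of -0.00. Without copper, 8 of 13 and 6 of 14 were lower (medians -0.12 and 0.10), where 52.9% of all probe sets measured were higher (median 0.01). Of the 18 hedgehog-related members, *grl-7*, *grl-9*, *wrt-1* and *wrt-6* passed the minimum only in copper-treated wild-type animals, and *grl-15* and *grl-21* only in wild-type animals. All of these had to be lower in the mutants with copper, and *grl-15* and *grl-21* also without copper. Among patched-related members, *ptr-1* and *ptr-22* had to be lower in the mutants with copper, and *ptr-12* without copper. Without copper, *grl-22*, *grl-27* and the probe set shared by *ptc-1* and *ptc-2* reached 100 in the mutants only and had to be higher there. The counts are therefore a description. Among the 5 hedgehog-related members with a mean signal of 300 or more, 3 were higher in the mutants with copper and the median was 0.12. Of all probe sets tested in that range, 48.4% were higher. The count with copper shares the array of copper-treated wild-type animals with the copper comparison above, so these counts are not separate. Among members with all signals at 100 or more, 6 of 9 hedgehog-related ones were lower in the mutants with copper and 6 of 9 without. Of all such probe sets, 49.9% and 52.5% were higher in the mutants.

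Some members were higher in the mutants. *wrt-10*, on chromosome II, gave 754 in copper-treated and 606 in untreated *kgb-1* mutants, against 444 in copper-treated and 457 in untreated wild-type animals. Both mutant values lay above both wild-type values, and the log2 difference of 0.59 ± 0.14 did not pass (SE, adjusted p = 0.214 from limma). Probe set 188060_s_at of *ptr-23* gave 207 and 181 in copper-treated and untreated mutants and 147 and 102 in copper-treated and untreated wild-type animals (log2 difference 0.66 ± 0.20, SE, adjusted p = 0.336 from limma). On 174816_at the signals were 234 and 168 in the mutants and 146 and 127 in wild-type animals (log2 difference 0.54, adjusted p = 0.401 from limma). The other two probe sets of the gene had differences of 0.16 and -0.13.

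Beside the genotype values, markers of larval molting, sperm and glia were read from the same arrays. Of 33 probe sets for genes used in larval molting and cuticle synthesis, 19 were tested, and 0 were called in either direction for genotype (log2 differences from -1.61 to 0.86, median 0.34). Among them *rol-6*, a cuticle collagen gene chosen after its values were seen, gave 101 and 113 in copper-treated and untreated mutants and 260 and 203 in copper-treated and untreated wild-type animals. *noah-2*, an apical matrix gene chosen likewise, ran the other way with 807 and 594 in the mutants and 443 and 408 in wild-type animals. The summed signal of 6 probe sets for major sperm proteins was 8831 and 9048 in copper-treated and untreated mutants and 11320 and 11864 in copper-treated and untreated wild-type animals, with log2 differences from -0.49 to -0.25. The summed signal of 6 probe sets for amphid glia was 532 and 499 in the mutants and 627 and 582 in wild-type animals. No marker was listed at 0, and the part of stage, sperm content or glia in the *grl* values was not tested.

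Apart from *ptr-8*, the patched-related members with the highest mean signals were not called. *ptr-2* gave 2667 and 2648 in copper-treated and untreated *kgb-1* mutants and 2696 and 2718 in copper-treated and untreated wild-type animals on 188102_s_at, a log2 change of -0.00 ± 0.09 with copper and -0.03 between genotypes. Its other member probe set, 175079_s_at, read 40.5 to 63.7, so the probe sets for this gene are not interchangeable. *ptc-1*, a Patched homolog needed for cytokinesis in the germ line, gave 1746 and 1883 in the mutants and 2154 and 1916 in wild-type animals on 175397_at, and 409 and 411 and then 450.0 and 373 on 192536_at. Its log2 changes with copper were 0.03 and 0.13, and neither was called (adjusted p = 0.942 and 0.747 from limma). A probe set that *ptc-1* shares with *ptc-2* read 78.0 to 126, and the array holds no probe set for *ptc-2* alone in the annotation used. *ptc-3*, which is needed for growth and molting, gave 171 and 192 in copper-treated and untreated mutants and 150.2 and 202 in copper-treated and untreated wild-type animals (log2 change -0.30 ± 0.18 with copper, SE, adjusted p = 0.566 from limma). *ptr-24* had 276 and 322 in the mutants and 314 and 383 in wild-type animals, lower with copper in each genotype but not called (adjusted p = 0.499 from limma).

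Among hedgehog-related genes, *grd-3* gave 3453 and 3534 in copper-treated and untreated mutants and 3735 and 2511 in copper-treated and untreated wild-type animals, so that the untreated wild-type sample stood below the other 3. *grd-5* gave 2365 and 2386 in the mutants and 2177 and 2598 in wild-type animals (log2 change -0.13 ± 0.11 with copper, SE, adjusted p = 0.658 from limma). *grl-4* read between 396 and 500.2, with the genotypes overlapping. *grd-14* gave 458 and 343 in the mutants and 484 and 468 in wild-type animals, and neither factor passed (limma, adjusted p = 0.56 with copper, 0.578 between strains). Of *wrt-5* the samples lay between 224.5 and 267, with no order by copper or genotype.

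Of the 45 member genes placed on the RefSeq annotation of WBcel235, 10 lie on chromosome V, 9 on II, 7 each on I, IV and X, and 5 on III. *grd-3* and *grd-10* are adjacent genes on chromosome IV. *grd-10* gave 128 and 119.8 in copper-treated and untreated mutants and 187 and 124 in copper-treated and untreated wild-type animals, and both genes read highest in copper-treated wild-type animals. *wrt-1* and *wrt-10* are adjacent on chromosome II, and *wrt-1* had its highest signal, 122, in copper-treated wild-type animals, where *wrt-10* had its lowest.

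The 18 members between 50 and 100 comprise 7 hedgehog-related and 11 patched-related probe sets. Their copper ratios in the mutants and in wild-type animals had a Pearson r of -0.04, against 0.11 for all 3146 probe sets of that range. *wrt-4*, picked out after its values were seen, gave 16.6 and 11.4 in copper-treated and untreated mutants and 63.8 and 60.5 in copper-treated and untreated wild-type animals. *ptr-15*, likewise, gave 76.67 and 64.91 in the mutants and 36.02 and 33.88 in wild-type animals. Genotypes did not overlap in either gene, but every signal was below the minimum and no fold change is given. The same held, in one direction or the other, for *grl-20*, *ptr-3*, *ptr-4*, *ptr-11*, *ptr-21* and *grl-7* on 173004_s_at. How often genotypes do not overlap over all probe sets was not counted, so nothing is drawn from it. *ptr-6* stayed between 34.5 and 66.1 on 188240_at and between 56.9 and 80.5 on 174995_s_at, while *ptr-4*, known for a role in molting and the apical matrix, read 26.4 to 54.5. The probe sets nearest to the rule were *ptr-3*, *ptr-4* and *grl-6* inside it, with highest signals of 53.7, 54.5 and 59.2, and *ptr-5*, *grl-12* and *ptr-2* on 174307_at outside it, with 49.7, 47.8 and 46.0.

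Other genes related to the pathway gave no call. Of 18 such genes, 17 were on the array with 31 probe sets, of which 12 were tested. Limma called 0 of these for copper (lowest adjusted p = 0.25) and 0 for genotype (lowest adjusted p = 0.45), with median log2 changes of -0.07 and -0.00. *hog-1* and *qua-1*, which encode other proteins with a Hint domain, read no higher than 32.3 and 50.6. *che-14*, the counterpart of Dispatched, and *daf-6*, a patched-like gene of the amphid channel, stayed below 100 on every array. *ncr-1*, a homolog of the Niemann-Pick C cholesterol transporter, gave 67.4 and 161 in copper-treated and untreated mutants and 132 and 169 in copper-treated and untreated wild-type animals (log2 change -0.80 ± 0.29 with copper, SE, adjusted p = 0.328 from limma). *lrp-1*, the megalin homolog needed for molting, gave 334 and 261 in the mutants and 400.0 and 265 in wild-type animals on 193872_s_at, which had the lowest adjusted p for copper in this list. Its brighter probe set, 171791_at, gave 705 and 806 in the mutants, lower with copper, and 929.7 and 465 in wild-type animals, higher with copper (adjusted p = 0.593 from limma). *tra-1*, the GLI homolog that acts in sex determination, gave 948 and 1059 in the mutants and 733 and 1098 in wild-type animals on 175621_at (adjusted p = 0.35 from limma).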

How the data were processed

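The authors had RNA of 4 conditions hybridized once, by a service company, to Affymetrix *C. elegans* GeneChips and deposited MAS5 signal intensities, 1 array per condition (the MAS5 version is not given in the sources used here). The deposited intensities have the same mean on each array, 500.1, after the highest and lowest 2% are removed. They were used as deposited.

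Probe sets were named by the platform's gene table: 20766 of 22625 carry 1 symbol, 887 several and 972 none. All 52 members with 1 symbol matched RefSeq WBcel235 by Entrez identifier, under the same symbol. The annotation served for names, chromosomes and gene order.

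Log2 signals of the 11266 worm probe sets (77 controls left out) that reached 100 on some array were fitted in limma 3.58.1 (R 4.3.3) with copper and genotype as factors, a trended prior, and p-values adjusted by Benjamini-Hochberg (threshold 0.05). The fit leaves 1 residual degree of freedom, the disagreement of the genotypes over copper, and the prior adds 5.19. A gene that responds in 1 genotype fails it by construction. The fit was tested on simulated data. Ratios over 2 or under 0.5 with the brighter signal at least 100 were counted as 2-fold. The number of arrays limits the precision.

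Named are members called or past 2-fold, the 5 with the highest mean signal in each class, genes with several probe sets, and the 3 on each side of the rule. Others were named after their values were seen. Members, gene lists and tests were chosen with earlier results of these data known. Alternatives were a signal minimum of 50, 200 or none, quantile normalization, scaling to equal medians, an offset of 32, signals below 100 raised to 100, probe sets without a suffix, a fit without the other factor, and each array left out. Tables were handled in Python 3.11.15 with pandas 2.3.3.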

Additional observations from a re-analysis of the deposited data

How the results depend on the processing

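No paired analysis was possible because each group holds 1 sample under 1 shared replicate number, and the genotype factor already sets copper against water within a strain. The median copper log2 ratio of the members in wild-type animals, 0.32 as reported, was 0.15 with a minimum of 200, 0.17 with signals below 100 raised to 100 and 0.18 with equal medians, and its highest value was 0.45, without suffixed probe sets. The median in *kgb-1* mutants ran from -0.02 to 0.12, that of the genotype ratio with copper from -0.30 to -0.08 and that without copper from -0.07 to 0.02. For copper, limma called 2 members higher with arrays scaled to equal medians (*ptr-8* and *ptr-23*) and 0 with probe sets without a suffix, which leaves *ptr-8* out, and between 0 and 1 with any array left out, 0 without either untreated array. For genotype it called 1 lower, *grl-21*, with a minimum of 50 or equal medians, and 0 in either direction with any array left out. Beyond 2-fold with copper in *kgb-1* mutants, the count higher was 1 with a minimum of 200, an offset of 32 or signals raised, and 0 without suffixed probe sets, and the count lower was 1 (*ptr-19*) with no minimum. In wild-type animals the count higher was 2 with a minimum of 200 or signals raised (*ptr-8* and *ptr-23*). It was also 2 with equal medians or an offset of 32, but there for *ptr-22* and *ptr-23*, with *ptr-8* short of 2-fold. Without copper, the count higher in mutants was 0 with a minimum of 200, an offset of 32 or signals raised, and the count lower was 4 with a minimum of 50, 5 with none, and 0 with a minimum of 200 or signals raised. With copper, the count higher was 1 (*ptr-15*) with a minimum of 50 or none, and the count lower was 6 with a minimum of 50 or none, and 1 with a minimum of 200, signals raised or no suffixed probe sets. The cause of these shifts was not tested, apart from the number of probe sets a minimum admits. Scaling to equal medians moved the median copper log2 ratio of all probe sets measured in wild-type animals to -0.12, and 23 of 33 members then had a ratio above 1, against 32.1% of all. For 188059_at of *ptr-23* the adjusted p from limma ran from 0.0332, with equal medians, to 0.148.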
